A study of Mus musculus with 2 samples.

Results

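The olfactory receptor (OR) cluster on mouse chromosome 9 was described here by where the boundaries of chromosome neighbourhoods fell along it. Its members were the protein-coding genes of GENCODE release M21, on build GRCm38, whose symbol starts with Olfr and which lie on chromosome 9 between 37.6 and 40.3 Mb. There were 95 members, of 1135 protein-coding OR genes and 21755 protein-coding genes on the 20 chromosomes examined. They ran from Olfr160 to Olfr986, chr9:37708964-40190134, a stretch of 2.48 Mb. A pair of them, Olfr896-ps1 and Olfr911-ps1, have symbols of pseudogenes although they are annotated as protein-coding.

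The cells were mature olfactory sensory neurons of the olfactory epithelium, isolated by cell sorting from adult mice of both sexes, with no strain specified. All of them carried a conditional knockout of Ldb1 made with OMP-Cre, a recombinase expressed under the promoter of a gene of mature olfactory neurons, so that the gene is deleted only as neurons mature. Each of 2 biological replicates supplied 1000000 cells, fixed in 1% formaldehyde and treated by in situ Hi-C with the enzyme DpnII, a method that joins and counts DNA sequences lying close together in the nucleus. The authors pooled both replicates before calling boundaries, so each value below comes from 1 list with no replicate error, and neither neurons with Ldb1 nor an expression readout that could show the cell type was analysed here.

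Olfactory receptors are G protein-coupled receptors that detect odorants, and their genes, usually with the coding sequence in a single exon, lie side by side in tandem arrays that grew by duplication. A mature olfactory neuron expresses a single receptor allele and keeps the remaining OR clusters in heterochromatin. The enhancers of OR genes are bound by the transcription factors Lhx2 and Ebf with their cofactor Ldb1, and contacts between clusters of different chromosomes are known in these neurons. A boundary is a position that few contacts cross, and CTCF, a DNA-binding zinc finger protein that halts loop extrusion, is found at many boundaries.

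Sequences are shown first for the few places on which the results turn. The consensus of CTCF had 1 exact match on either strand inside the whole cluster, given here between its nearest matches on each side, which both lay outside the cluster. Each line gives 32 bases 5′ to 3′ in GRCm38, read along the strand of the match, with the 12 bases of the match in capitals.

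left of the cluster, chr9:37690130-37690161, plus strand: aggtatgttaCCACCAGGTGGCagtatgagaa

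inside the cluster, chr9:39509164-39509195, plus strand: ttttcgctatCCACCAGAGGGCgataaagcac

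right of the cluster, chr9:40247788-40247819, minus strand: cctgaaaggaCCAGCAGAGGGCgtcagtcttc

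The 250 bases before the annotated start are shown next for the 5 members at a boundary, because these genes began inside a boundary bin or no more than 10 kb away. Sequences are from GRCm38 and run 5′ to 3′ along the strand of the gene. Capitals mark matches to CCCNNGGG, the core bound by Ebf factors, or to TAATTA, a core bound by homeodomain factors such as Lhx2, searched on both strands.

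Olfr881, chr9:37991575-37991824, plus strand: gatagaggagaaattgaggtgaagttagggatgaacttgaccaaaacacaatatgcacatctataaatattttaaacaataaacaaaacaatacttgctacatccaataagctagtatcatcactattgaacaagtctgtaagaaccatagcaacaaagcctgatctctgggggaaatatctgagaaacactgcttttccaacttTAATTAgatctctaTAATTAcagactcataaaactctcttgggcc

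Olfr923, chr9:38826295-38826544, plus strand: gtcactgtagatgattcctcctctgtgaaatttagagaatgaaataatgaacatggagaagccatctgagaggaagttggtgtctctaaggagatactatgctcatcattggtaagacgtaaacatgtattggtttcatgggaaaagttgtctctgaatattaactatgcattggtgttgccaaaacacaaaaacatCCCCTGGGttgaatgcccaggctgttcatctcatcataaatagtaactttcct

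Olfr44, chr9:39493996-39494245, minus strand: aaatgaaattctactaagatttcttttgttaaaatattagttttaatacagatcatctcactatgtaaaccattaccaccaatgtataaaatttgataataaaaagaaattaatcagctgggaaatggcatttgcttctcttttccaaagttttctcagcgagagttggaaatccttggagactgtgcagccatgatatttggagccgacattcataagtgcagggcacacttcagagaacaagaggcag

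Olfr972, chr9:39866172-39866421, plus strand: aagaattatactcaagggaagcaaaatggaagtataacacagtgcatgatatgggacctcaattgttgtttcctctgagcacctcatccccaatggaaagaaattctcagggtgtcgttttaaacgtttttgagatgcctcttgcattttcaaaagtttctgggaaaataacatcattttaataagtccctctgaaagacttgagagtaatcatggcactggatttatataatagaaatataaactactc

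Olfr986, chr9:40180670-40180919, plus strand: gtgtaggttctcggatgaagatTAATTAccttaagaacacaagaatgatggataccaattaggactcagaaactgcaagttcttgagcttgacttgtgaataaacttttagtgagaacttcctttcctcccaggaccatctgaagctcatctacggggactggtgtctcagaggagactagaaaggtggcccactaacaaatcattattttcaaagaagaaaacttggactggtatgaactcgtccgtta

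The stretch before Olfr881 held TAATTA at 2 positions, that before Olfr986 held it at 1, that before Olfr923 held CCCNNGGG at 1, and those before Olfr44 and Olfr972 held neither. Such a match is a run of letters and not a measured binding site.

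The cluster held 5 boundaries, 4 weak and 1 strong, and the strong boundary lay almost at its right end. A boundary is listed as a bin of 5 kb with a strength, the authors' score for how sharply contacts drop there. In the list, strengths ran upward from 0.2, and those of 0.5 or more are classed as strong. The median strength was 0.301 over the weak bins of the genome and 0.911 over the strong ones.

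The boundary nearest to the left edge stood outside the cluster, 34 kb before the first base of the cluster, at chr9:37670001-37675000. It was strong, at 0.748, and 64.4% of the 7610 boundaries of the list were weaker. It overlapped no gene, lay 0.766 kb from the start of Panx3, which encodes a pannexin channel protein, and 41.2 kb from that of Olfr160. Olfr160 encodes M72, a receptor studied for its response to acetophenone.

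The 4 weak boundaries were all weaker than the median of the list, 0.538. The first, chr9:37980001-37985000, had a strength of 0.284 and separated Olfr878, 62.2 kb to its left, from Olfr881, 6.83 kb to its right. It lay in the widest gap between neighbouring start sites, 74.0 kb, where the median gap was 23.0 kb. The next, chr9:38825001-38830000, was the strongest of the 4 at 0.373 and overlapped an exon of Olfr923, whose start was inside the bin. Olfr922 began 10.4 kb to its left and Olfr924 14.4 kb to its right. The boundary at chr9:39500001-39505000 had a strength of 0.243 and lay between Olfr44, 6.01 kb away, and Olfr957, 10.8 kb away, without overlapping a gene. The boundary at chr9:39865001-39870000 was the weakest at 0.226, with 7.88% of the list weaker, and overlapped an exon of Olfr972, whose start was also inside the bin. Its other neighbours, Olfr971 and Olfr229, began 28.1 kb and 37.3 kb away. Thus 2 of the 4 weak bins held an OR start and the other two lay between genes.

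The strong boundary inside the cluster, chr9:40170001-40175000, had a strength of 2.51. It ranked 52 in the genome and 4 among the 389 boundaries of chromosome 9, and 99.3% of the list was weaker. It overlapped no gene and lay between Tmem225, a transmembrane protein gene 21.9 kb to its left, and Olfr986, 5.92 kb to its right. Olfr986 was therefore the only member to the right of it. Beyond it the next boundary, chr9:40595001-40600000, was 405 kb past the cluster and had a strength of 0.879. On the left, the boundary before the edge one was at chr9:37350001-37355000, 354 kb outside, with a strength of 1.5.

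**Figure D1:**
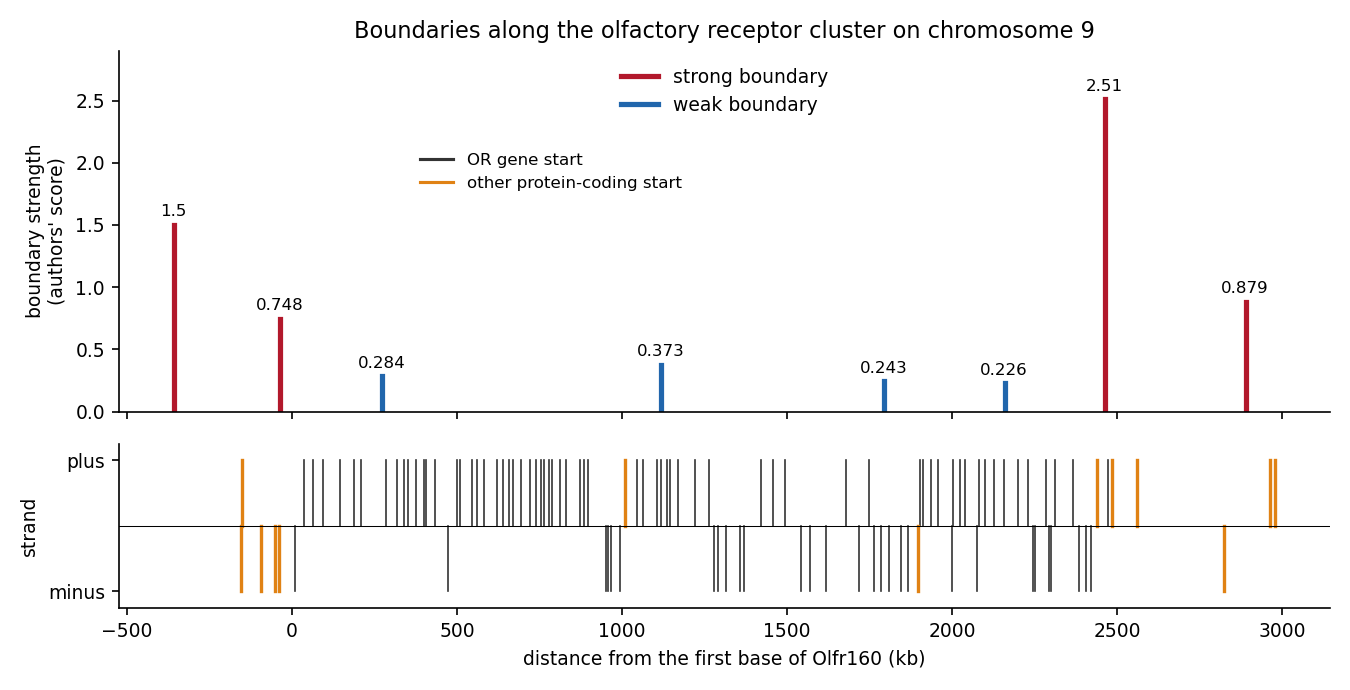
The upper panel plots the strength of 8 boundaries (authors' score, vertical axis) against the distance from the first base of Olfr160 in kb, with strong boundaries in red and weak ones in blue; the lower panel marks the start and strand of each OR gene (black) and of neighbouring protein-coding genes (orange). The 4 weak boundaries, 0.226 to 0.373, lie among the OR genes, and the boundary of 2.51 stands before the last of them.

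The bin of the strongest boundary was made almost wholly of repeats. Of its bases 99.8% were soft-masked, that is marked as repeats in the reference, where the median boundary bin of chromosome 9 had 26.8%. No other of the 389 boundary bins of chromosome 9 had as high a share. In the genome 31 of 7610 boundary bins (0.407%) and 14 of 4022 strong ones (0.348%) were at least 99% soft-masked. Among the 52 bins at least as strong as this, only this bin was. Of its 32-base words, 88.7% occurred more than once on the 20 chromosomes, and 75.3% more than 10 times. The neighbouring bins had 34.8% on the left and 4.32% on the right. The median was 4.84% over the 227 strong bins of chromosome 9, of which no other was as high. It was 7.5% over the 162 weak bins of chromosome 9, of which 2 were as high, at 93.4% (strength 0.248) and 91.5% (strength 0.282). Over the 498 bins of the cluster the median was 12.8% (quartiles 5.69 and 32.2%), and 11 of them were as high. Among the weak boundaries of the cluster the word share was 55.9% at 0.243, 9.8% at 0.284, 9.6% at 0.373 and 9.8% at 0.226, and it was 2.82% at the left edge. Reads from repeated words may not be placed uniquely. The contact counts and the mask behind the score were not used here, and the part of repeats in the strength of 2.51 was not tested. These repeat measures were chosen after the boundary values had been seen.

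**Figure D2:**
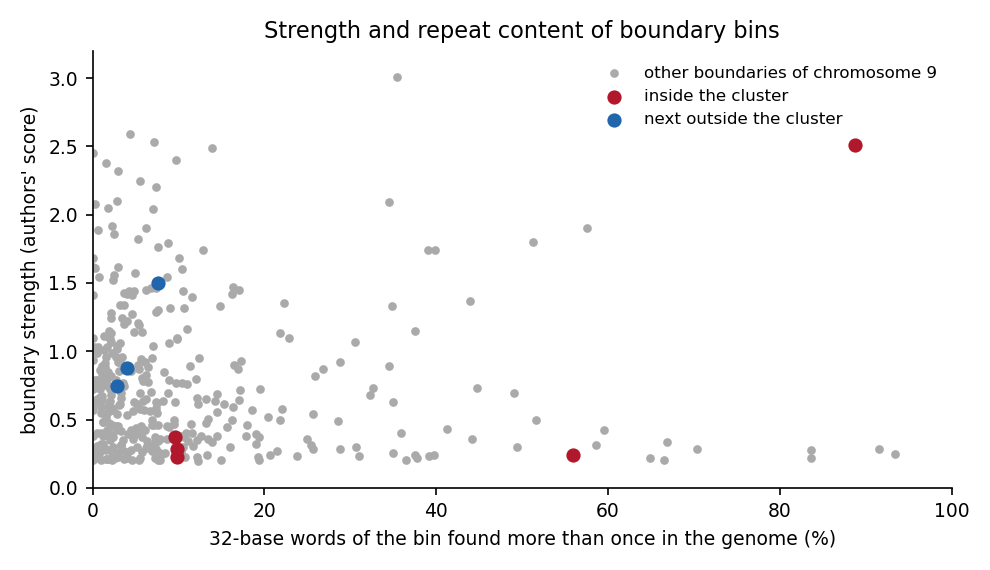
Each point is a boundary bin of chromosome 9, with the share of its 32-base words found more than once in the genome in percent (horizontal axis) and its strength as the authors' score (vertical axis); bins inside the cluster are red, the next ones outside it blue and the rest grey. The red point at 88.7% and 2.51 stands apart from the other strong bins, and the weak bins of the cluster lie at 9.6 to 55.9%.

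The boundaries divided the cluster into domains, a domain being the stretch between neighbouring boundary bins, which were uneven in length and in number of genes. The 7590 domains of the list had a median length of 260 kb (quartiles 180 and 390 kb). From left to right, Olfr160 to Olfr878 (7 members) shared a domain of 305 kb, longer than 60.3% of all domains. Olfr881 to Olfr922 (37 members) shared 840 kb, longer than 96.0% and at rank 298. Olfr924 to Olfr44 (21 members) shared 670 kb, longer than 92.3% and at rank 570.

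The 2 long domains thus lay in the middle of the cluster, and the domains at both ends were of 420 kb or less. Olfr957 to Olfr971 (15 members) shared 360 kb, longer than 70.3%. Olfr229 to Olfr985 (12 members) shared 300 kb, longer than 59.3%. Olfr986 alone lay in a domain of 420 kb, longer than 77.9%, together with Zfp202, a zinc finger gene, Scn3b, a sodium channel beta subunit gene, and Gramd1b, which encodes a sterol transport protein. Olfr923 and Olfr972 began inside boundary bins and were given to no domain. When only strong boundaries were counted, 94 members shared an interval of 2495 kb, longer than 96.8% of 4002 such intervals, and Olfr986 lay in the next.

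**Figure D3:**
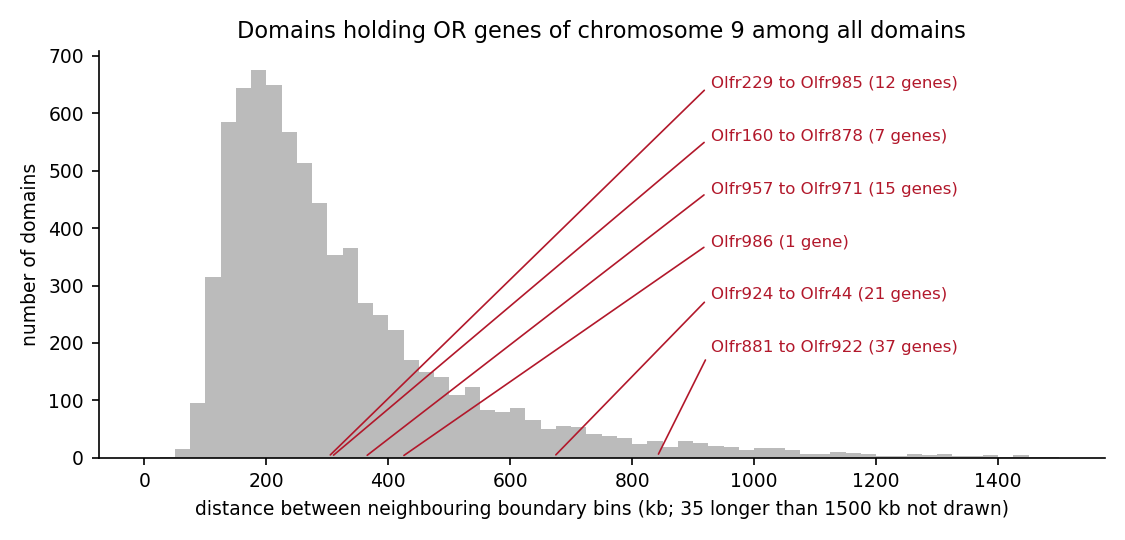
The grey bars count all domains of the list by length in kb, in steps of 25 kb, and the red lines point to the lengths of the 6 domains that held OR genes of the chromosome 9 cluster, with the number of members. The domain of 37 genes (840 kb) and that of 21 genes (670 kb) lie in the right tail, and the other 4 lie between 300 and 420 kb.

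Domains differed in gene density and strand. Members numbered 2.3 per 100 kb in the domain of Olfr160, 4.4 in that of Olfr881, 3.13 in that of Olfr924, 4.17 in that of Olfr957 and 4.0 in that of Olfr229, against 0.238 in that of Olfr986. In the domain of 840 kb, 32 of 37 members were on the plus strand, and in the domain of 670 kb 10 of 21 were. Over the cluster 66 members were on the plus strand and 29 on the minus strand, and 71 of 94 neighbouring pairs had the same strand. Base composition also differed along the chromosome. GC content was between 36.9 and 39.5% in the 5 domains from Olfr160 to Olfr985. It was 44.3% in the 315 kb domain to the left, which held no OR gene and 11 others, and 44.6% in the domain of Olfr986. Soft-masked sequence made up 37.7 to 46.6% of the 5 domains, 26.0% of the left neighbour and 23.2% of the domain of Olfr986.

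Few start sites of the cluster lay at a boundary. A start was counted as at a boundary when it fell inside the bin or no more than 10 kb from it, and this held for 5 of 95 members, or 5.26% (exact 95% binomial interval 1.73 to 11.9%), where 14.3% of all protein-coding starts lay so. The members were Olfr881, Olfr923, Olfr44, Olfr972 and Olfr986, each at a different boundary. A start inside the bin was found for 2 members (2.11%), against 3.86% of all, and a strong boundary within 10 kb for 1 member (1.05%), Olfr986, against 9.30% of all. Just beyond 10 kb were Olfr922 at 10.4 kb, Olfr957 at 10.8 kb and Olfr924 at 14.4 kb. The interval covers counting error only and treats members as independent, although they share boundaries. The start sites themselves are uncertain. RefSeq, which lists 80 promoters for 79 members, put 40 of them more than 1000 bases from the GENCODE start, and 5 of its starts also lay within 10 kb of a boundary, but not those of the same genes. Olfr881, Olfr44 and Olfr972 were at a boundary in both annotations. By RefSeq, Olfr922 at 9.59 kb and Olfr957 at 6.72 kb were too, Olfr986 was at 12.1 kb, and Olfr923 had no matched entry.

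Most members were far from any boundary. Their median distance to the nearest bin was 128 kb (quartiles 68.8 and 233 kb), and 56 members were over 100 kb away, 28 over 200 kb and 14 over 300 kb. The 5 farthest lay in the middle of the domain of 840 kb. Olfr147 was at 417 kb, Olfr901 at 396 kb, Olfr251 at 392 kb, Olfr250 at 382 kb and Olfr902 at 377 kb. In the domain of 670 kb the farthest member, Olfr943, was at 334 kb. Median distances were 232 kb in the domain of Olfr881, 158 kb in that of Olfr924, 106 kb in that of Olfr957, 86.6 kb in that of Olfr229 and 83.3 kb in that of Olfr160. Distances within a domain follow from its length and from gene order, so members of a domain are not separate observations.

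**Figure D4:**
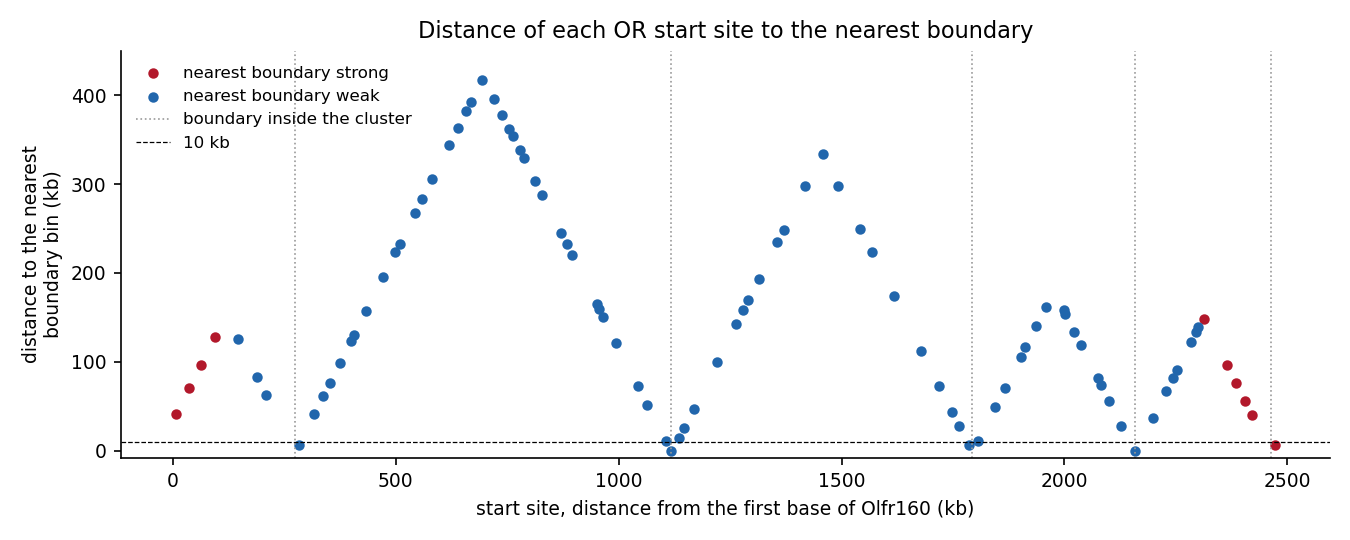
Each point is an OR gene of the cluster, with its start site in kb from the first base of Olfr160 (horizontal axis) and its distance to the nearest boundary bin in kb (vertical axis), coloured by the class of that boundary; dotted lines mark the 5 boundaries inside the cluster and the dashed line marks 10 kb. The points rise to 417 kb in the longest domain, and 5 points lie under the dashed line.

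The nearest boundary was weak for 85 members and strong for 10 (10.5%). By boundary, 4 members were nearest to the left edge boundary of 0.748, 22 to that of 0.284, 30 to that of 0.373, 17 to that of 0.243, 16 to that of 0.226 and 6 to that of 2.51. The 10 members with a strong neighbour were thus those at the ends of the cluster. The median strength over members was 0.284 (quartiles 0.243 and 0.373). To the nearest strong boundary alone the median distance was 616 kb.

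The OR cluster of chromosome 2, with 227 genes, and that of chromosome 7 from Olfr543 to Olfr649, with 95 genes, were taken for comparison as the other two of the 3 OR clusters with most genes. Start sites at a boundary were about equally rare in all 3 clusters, with 13 of 227 (5.73%) on chromosome 2 and 5 of 95 (5.26%) on chromosome 7. Median distances were 143 kb on chromosome 2 and 104 kb on chromosome 7, beside the 128 kb of chromosome 9. The nearest boundary was strong for 11% of the genes on chromosome 2 and for 40.0% on chromosome 7, beside the 10.5% of chromosome 9. Over the 1040 OR genes outside the chromosome 9 cluster the median distance was 92.2 kb, 6.54% lay at a boundary and 36.9% had a strong nearest boundary. Over all protein-coding genes the median distance was 56.6 kb and 63.3% had a strong nearest boundary, and over the 1115 other genes of chromosome 9 these values were 55.6 kb and 68.4%. More than 200 kb from a boundary were 29.5% of the members, 33.0% of the genes of the chromosome 2 cluster and 27.4% of those of the chromosome 7 cluster. The share was 21.0% over the other OR genes and 8.37% over all genes. None of these differences was tested, because 1 list gives no replicates and neighbouring genes share boundaries.

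Boundaries per length were fewer inside the cluster than along chromosome 9, but within counting error. The 5 boundaries made 2.02 per Mb (exact 95% Poisson interval 0.654 to 4.7), against 3.12 per Mb over chromosome 9 and 2.89 over the genome. The chromosome 2 cluster had 1.77 per Mb (0.811 to 3.37) and the chromosome 7 cluster 2.91 per Mb (0.944 to 6.79). The 1 Mb to the left of the cluster held 3 boundaries, 2 of them strong, and the 1 Mb to the right held 3, all strong.

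The genes around and among the receptors differed in how near they stood to a boundary. On the left, Panx3 began 0.766 kb from the edge boundary of 0.748 and Tbrg1, a growth regulator gene, 12.7 kb from it. Spa17, a sperm protein gene, was 56.3 kb from the same boundary, Siae, a sialic acid esterase gene, 114 kb, and Nrgn, which encodes the neuronal calmodulin-binding protein neurogranin, 117 kb. Inside the cluster, Vwa5a was 107 kb from the boundary of 0.373, AW551984 99.4 kb from that of 0.243 and Tmem225 21.9 kb from that of 2.51. On the right, Zfp202 was 17.3 kb and Scn3b 94.2 kb from the boundary of 2.51. Gramd1b was 63.6 kb, Gm21915 70.6 kb and Clmp, a cell adhesion protein gene, 86.0 kb from the boundary of 0.879. Of these genes, Panx3 alone began within 10 kb of a boundary.

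Olfr151, which encodes the receptor M71, is annotated as a polymorphic pseudogene in the reference and so was not a member. It lies at chr9:37729977-37731104 on the minus strand, next to Olfr160 and in the same domain, 56.1 kb from the boundary of 0.748. Its coding sequence was 96.8% identical to that of Olfr160, and the next highest value to any member was 71.3%, to Olfr229. The cluster span held 28 OR pseudogenes outside the membership, 10 of them polymorphic, and none of the 28 was at a boundary (median distance 126 kb). Among members 5.26% were, and among all protein-coding starts 14.3%. The pseudogenes are few and share the members' boundaries, and the difference was not tested.

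Exact matches to the CTCF consensus were few in the cluster. The 1 match made 0.403 per Mb (exact 95% Poisson interval 0.0102 to 2.25), against 4.83 per Mb over the genome (12728 matches). Over the other 41 OR clusters it was 2.25 per Mb (59 matches in 26.3 Mb), which as rounded equals the upper end of the interval. Some other OR clusters were low as well. The density was 1.38 per Mb in the cluster of chromosome 2 and 1.74 in that of chromosome 7. It was 0.798 in that from Olfr90 to Olfr136 on chromosome 17. Others were near or above the genome's value, such as Olfr9 to Olfr827 on chromosome 10 at 4.08 and Olfr1417 to Olfr1441 on chromosome 19 at 5.03. Of the 41, 15 held no match. Their spans ran from 0.036 Mb (Olfr462 to Olfr464) to 0.929 Mb (Olfr1275 to Olfr1318), and an absence from a short span says little. Of 1032 genome windows of the same length, 99.2% held at least 1 match, the median was 10.0 and 3.29% held at most 1. Of the 176 windows with a GC content within 1 percentage point of the cluster's 37.7%, 97.7% held a match, the median was 4.0 and 11.4% held at most 1. The match lay 4.17 kb to the right of the weak boundary of 0.243, between Olfr44 and Olfr957, outside repeats and genes, and its strand read away from the boundary. The window comparison was chosen after the match count had been seen and is a description.

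The nearest matches outside stood between the cluster and its outer boundaries or beyond them. The left one lay 15.1 kb to the right of the boundary of 0.748, before Olfr160, and read away from it. The right one lay 72.8 kb beyond the boundary of 2.51 and read toward it. No exact match was within 10 kb of the boundary of 2.51, and of the 8 boundaries described only that of 0.243 had one, where 24.4% of all boundaries did. With up to 1 mismatch allowed the cluster held 116 matches, 46.8 per Mb against 81.9 per Mb over the genome. Of these 6 were within 10 kb of a boundary, 2 of them at the boundary of 2.51, 2 at that of 0.284, 1 at that of 0.243 and 1 at that of 0.226. The boundaries of 0.748 and 0.373 had none, where 89.1% of all boundaries had at least 1. A consensus match is not a measurement of CTCF binding, and the lack of one says only that these letters were not in the window.

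Promoter motifs were searched in the 250 bases before to 50 after each GENCODE start. CCCNNGGG was in 15 of 95 promoters (15.8%), beside 15.4% of the other OR promoters and 15.9% of all protein-coding promoters. TAATTA was in 14 (14.7%), beside 25.0% of the other OR promoters and 5.22% of all. A match to either motif cannot share bases with a match to the other, and 28 promoters (29.5%) held at least 1 of them. The share was 37.5% of the other OR promoters and 20.6% of all protein-coding promoters. The median GC content of the promoters was 36.3% for members and 55.0% for all genes, and its part in the motif counts was not tested. Of the members at a boundary, Olfr881 and Olfr986 held TAATTA, Olfr923 held CCCNNGGG, and Olfr44 and Olfr972 held neither. Counts depended on the annotated start. In the 80 RefSeq promoters of members TAATTA was in 14 (17.5%) and CCCNNGGG in 2 (2.5%), where 5.25% and 13.8% of all 32619 RefSeq promoters held them.

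Pooled over the cluster, members of a domain were somewhat more alike in coding sequence than members of different domains, but this did not hold in every domain. Coding sequences were aligned end to end for all 4465 pairs of members, and this comparison was added after the boundaries had been seen. Identity had a median of 68.3% over 1068 pairs within a domain and 64.7% over 3210 pairs in different domains (all pairs 65.8%, range 54.3 to 98.1%). The median was 71.6% within the domain of Olfr160, 68.6% within that of Olfr881 and 70.2% within that of Olfr924. It was only 64.4% within the domain of Olfr957 and 61.3% within that of Olfr229, both below the pooled value for different domains. Against each of the other domains, the median for the domain of Olfr229 was much as within it, at 60.8 to 62.1%. For that of Olfr957 it was 61.3 to 66.6%. Members in the domains of Olfr160 and Olfr881 were as alike between these domains, at 68.7%, as within the latter. Of 93 members with a domain, 78 had their closest relative in the same domain, but 37 of the 93 lay in 1 domain. The closest relative was a direct neighbour for 29 of 95 members. Of 33 pairs above 90% identity, 29 shared a domain. Over all pairs in which both members had a domain, 1068 shared it and 3210 did not. No share of closest relatives to set beside 78 of 93 was computed. The highest pair was Olfr952 and Olfr955, 98.1% identical and in the domain of 670 kb. The difference was not tested, since pairs share genes. Pairs within a domain are also nearer to each other along the chromosome, and the part of that nearness was not tested.

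Neighbouring genes with no boundary between them had a median identity of 77.1% (87 pairs, quartiles 69.1 and 87.4%). The 7 neighbouring pairs with a boundary bin between them, or with a member in the bin, had a median of 70.5%. These pairs were Olfr878 and Olfr881 at 68.9%, Olfr922 and Olfr923 at 70.5%, Olfr923 and Olfr924 at 65.7%, Olfr44 and Olfr957 at 77.3%, Olfr971 and Olfr972 at 76.4%, Olfr972 and Olfr229 at 76.8%, and Olfr985 and Olfr986 at 58.2%. The pair across the strongest boundary was the least alike of the 7. The ranges of the groups overlapped, since the 87 other pairs reached down to 58.4%.

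Close relatives also lay on opposite sides of boundaries. Olfr971 and Olfr229 were 90.2% identical on either side of the weak boundary of 0.226, and Olfr972, whose start was in that bin, was 94.9% identical to Olfr968 to its left. Olfr919 and Olfr150 were 94.7% identical although 1027 kb and 2 boundaries lay between them. Olfr983 was 85.2% identical to Olfr901, 1664 kb away. Across the strongest boundary no close pair was found. The closest member to Olfr986 was Olfr984 at 64.4%, and its median identity to the other members was 60.6%. Its distance from the rest is shared with neighbours inside the cluster, since Olfr984 had no closer member either and the best value for Olfr981 was 64.7%. At the other end, the closest member to Olfr160 was Olfr229, 71% identical and 2191 kb away.

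**Figure D5:**
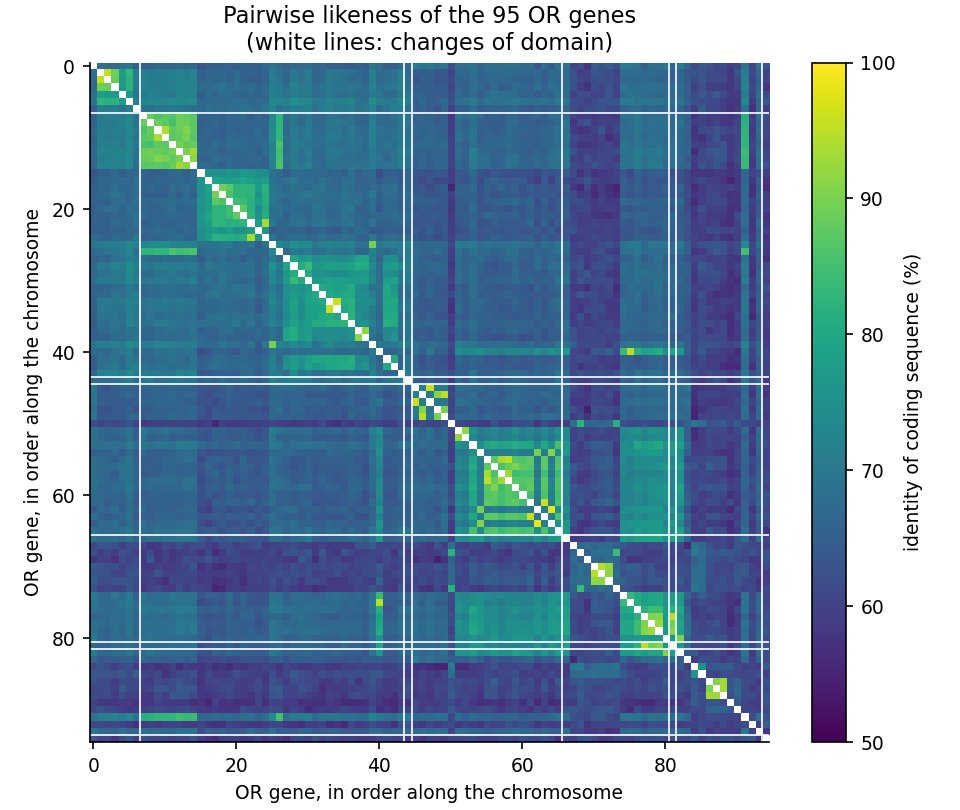
The colour gives the identity of coding sequence in percent for each pair of the 95 OR genes, placed in their order along the chromosome on both axes, and white lines mark changes of domain, with double lines around the genes that start in a boundary bin. Blocks of high identity lie along the diagonal within domains, several to a domain, and the last gene, Olfr986, has no value above 64.4%.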

How the data were processed

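In situ Hi-C was performed on 2 replicates of 1 group, so no group comparison was made. Per the series design text, the boundaries came from a matrix in which contact pairs of both replicates were combined. The build was GRCm38 per the submitters' processing notes, and boundaries are described as called from diamond insulation. Boundary strength is a score computed by the authors for each 5 kb bin; it was used as deposited. The caller, its version, window and mask, and the read depth, were not given in the sources used here; any of these could affect scores of repeat-rich bins. Coordinates were matched to GRCm38 and GENCODE M21, and RefSeq promoters (GRCm38.p6) were an alternative. Distances ran from the start site of the gene record to the nearest bin edge. OR clusters joined neighbouring genes up to 200 kb apart and needed 3 or more. CTCF matches were searched with a 12-base consensus on both strands. Coding sequences were aligned globally (match 2, mismatch -1, gap open -5, gap extension -0.5). Python 3.11.15, numpy 2.4.6, pandas 2.3.3, scipy 1.17.1, matplotlib 3.10.9 and Biopython 1.88 were used. The distance and motif searches were tested on simulated data. Exact 95% intervals cover counting error only. The members, motifs and named genes were chosen with earlier results of these data known. Named genes were the first and last member of the cluster and of each domain, members within 10 kb of a boundary, the 5 farthest, Olfr151 and Olfr160, the 5 nearest other genes on each side and all inside. Other members were named for extreme or boundary-crossing coding identity, after their values were seen. Alternatives covered boundary class, window, start site, membership, cluster span, motif stringency and promoter window. Protein sequences were not used here.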

Additional observations from a re-analysis of the deposited data

How the results depend on the processing

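Of 23 alternatives to 7 results, 14 left the value within 1.5 times of the main one. Counts were compared as counts, and the intervals for counting error were not used for this. With strong boundaries alone, the cluster held 1 boundary and not 5, and 1 member and not 5 lay at a boundary. The median distance rose from 128 to 616 kb, and the median domain length from 390 to 1458 kb. Only 2 such domains held members, of 2495 and 420 kb, so 1458 kb is the midpoint between them. Members at a boundary numbered 2 of 95 in the bin only (2.11%, against 3.86% of all protein-coding starts) and 8 within 25 kb. They numbered 7 by any transcript start or by gene body. The share over all genes at 25 kb, by transcript start or by gene body is not given here. The lower quartile of distance was 23.3 kb over all protein-coding genes and 68.8 kb over members. With at most 1 mismatch the CTCF consensus had 116 matches and not 1. Promoters holding either motif numbered 43 of 95 and not 28 with 500 bases before to 100 after the start. This was 45.3%, beside 51.1% of the other OR promoters and 34.1% of all protein-coding promoters in that window. With RefSeq starts 16 of 80 promoters of members held either motif, beside 18.6% of all RefSeq promoters. Leaving out the 2 members with pseudogene symbols, chosen after seeing the data, gave 5 members at a boundary and a median of 126 kb. No paired analysis was possible because boundaries were called on pooled contacts of 1 group, so no replicate could be left out. Sequencing depth behind each boundary is unknown, and a boundary too weak to be listed cannot be told apart from no boundary.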
